A study of Mus musculus with 11 samples.

Results

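PD-L1low beta cells were compared with untreated control beta cells. Whole islets of adult male C57BL/6 mice, with no transgene or deletion named in the sources, were kept in culture for 20 h, either untreated or with IFNγ at 50 pg/mL, before beta cells were isolated by flow cytometry. The gate for both groups took cells with EpCam and CD71, little CD24 and no CD45, TER119 or CD31, and the treated cells were further divided by their surface PD-L1. PD-L1low cells are therefore cells that had been in IFNγ-treated islets and carried little PD-L1 on their surface, not untreated cells. Control cells were not divided by PD-L1, so an effect of treatment and selection by the PD-L1 gate cannot be told apart. Rose and fell below mean higher and lower than control only. The comparison holds 7 of the 11 libraries of the series, which are PD-L1low replicates 2, 3 and 4 and control replicates 1, 2, 3 and 4. Of 55487 genes in the files, 16252 passed the filter on low counts and were tested. The other 4 libraries, of PD-L1high cells from islets under the same IFNγ treatment, share the fit and are given beside the results. The question was which transcripts differ from control in beta cells that came from IFNγ-treated islets and were low for PD-L1, a target of IFNγ. Whether IFNγ reached each of these cells was not tested here. The study proposes that the cytokine diffuses only gradually into an islet.

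IFNγ, the cytokine of T lymphocytes and natural killer cells, binds a receptor of the chains IFNGR1 and IFNGR2 and activates the kinases JAK1 and JAK2. These activate transcription factors that bind the gamma-activated sequence (GAS) in the promoters of early target genes such as *Irf1*. IRF1 and factors that contain STAT2 and IRF9 bind the interferon-stimulated response element (ISRE), so that a single gene can be driven through either element or both. In beta cells the cytokine is known to raise MHC class I, which presents peptides to CD8 T lymphocytes, and PD-L1, which inhibits T lymphocytes through the receptor PD-1.

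Library totals ran from 10422018 to 15810769 rounded expected counts over the series, and from 11826335 to 14725088 in the PD-L1low libraries. Gene levels below are in CPM, the usual count relative to library size, with library sizes normalized by TMM. The labels number the replicates, and each is an independent biological sample by the study's methods. Control replicate 1 stood apart from the other controls. Mitochondrial genes took 13.3% of its counts, the highest share of the 11 libraries, and its chi-square per degree of freedom against the other controls was 58.02 to 112, where the other pairs within groups gave 10.59 to 46.03. It was also the highest control library for 83 of the 116 tested genes on the interferon lists, whereas it was the highest control for 38.1% of all tested genes. No PD-L1low library carries the number 1. Named genes whose call depended on this library are given with and without it. Since it was often the highest control for interferon genes, leaving it out favours calling these genes higher.

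Against control cells, 10 genes rose and 3 fell in PD-L1low cells, by edgeR's quasi-likelihood test at a Benjamini-Hochberg adjusted p under 0.05. That is 0.0615% of tested genes higher, 0.0185% lower and 0.08% in all. At an unadjusted p under 0.05 there were 161 genes higher (0.991%) and 181 lower (1.11%). Among the genes that were higher were 6 of the immunity-related GTPase (IRG) list, *Igtp*, *Irgm1*, *Irgm2*, *Gm12185*, *Gm12250* and *Gm4841*, with the guanylate-binding protein *Gbp7*, the peptide transporter *Tap1* and *Cd274*, which encodes PD-L1. The genes that fell were the hormone genes *Ppy* and *Pyy* and the secreted glutathione peroxidase *Gpx3*. For each of the 13 genes, the 3 PD-L1low libraries lay wholly above or wholly below the 4 control libraries. The test that picked the genes used these libraries, so this is no separate support. Over all tested genes, 208 had PD-L1low libraries all above the controls (1.28%) and 232 all below (1.43%). The direct test of PD-L1high against PD-L1low cells was passed by 13 of the 13 genes, and all 13 were at a higher level in PD-L1high cells. It used the same PD-L1low libraries that picked these genes, so it is not independent of that choice. The choice favours this direction for the 3 genes that fell, and the gate set it for *Cd274*. Over all tested genes that test was passed by 0.64% higher and 0.0923% lower in PD-L1high cells, 0.732% in all. The PD-L1high cells, compared with the same control libraries, had 153 genes higher (0.941%) and 8 lower (0.0492%).

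Of the 13 genes, 8 lie on chromosome 11, which holds 7.06% of the tested genes. Positions are of whole gene models in GENCODE M21 on GRCm38. The IRG genes form 2 sets there, *Irgm1* at chr11:48861968-48871683 and *Gm12185* at chr11:48904656-48992226 in the first, and *Gm12250* at chr11:58187739-58189012, *Igtp* at chr11:58199556-58207591 and *Irgm2* at chr11:58199618-58222782 in the second. *Gpx3* lies between them, at chr11:54902453-54910377. *Gbp7* is at chr3:142530342-142550149, *Tap1* at chr17:34187553-34197225, *Gm4841* at chr18:60268305-60273272 and *Cd274* at chr19:29367455-29388095.

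**Figure D1:**
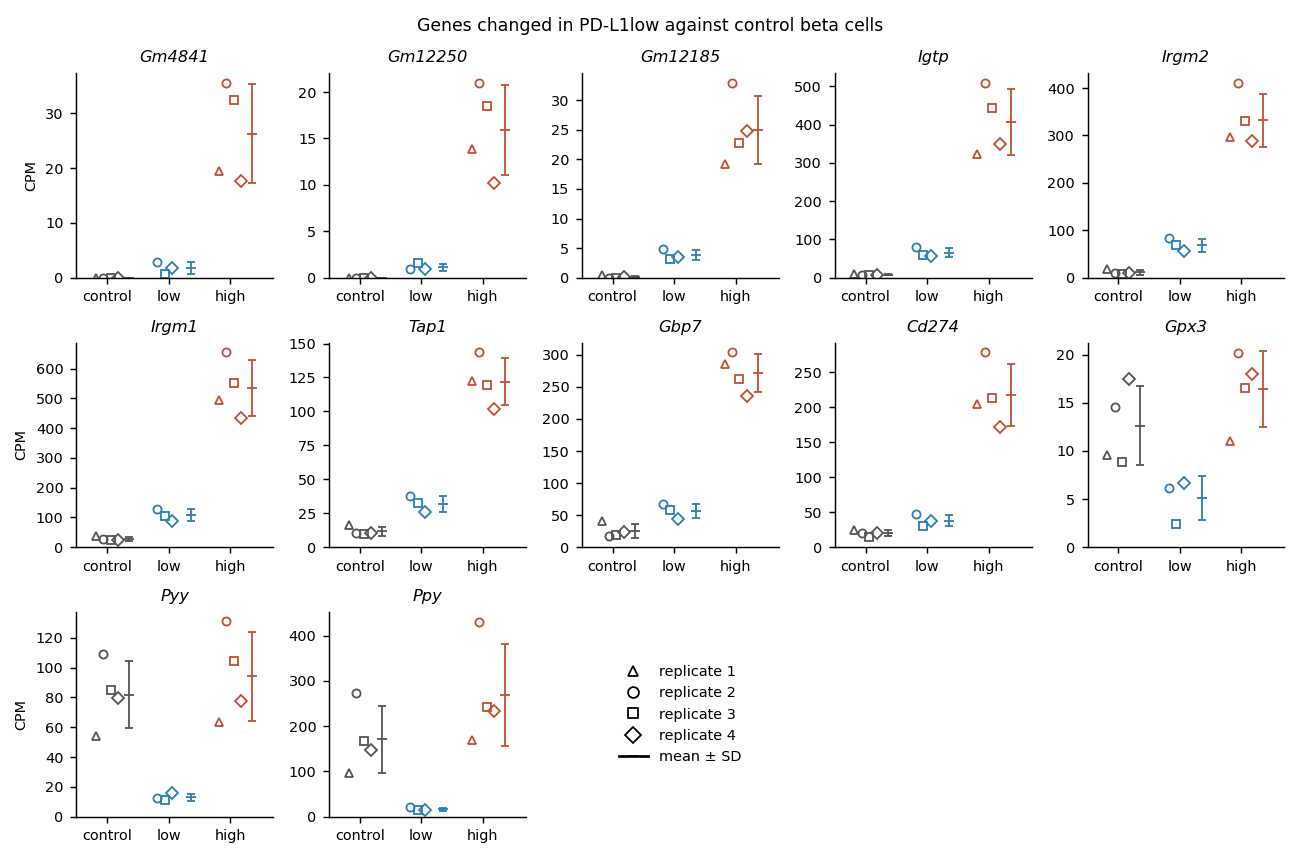
CPM (linear axis from 0) of 12 genes that changed in PD-L1low against control cells, in each control, PD-L1low and PD-L1high library. Symbols give the replicate number and bars the mean ± SD of 4, 3 and 4 libraries. For the plotted genes that rose, PD-L1low libraries sat above the controls and below the PD-L1high libraries. *Ppy*, *Pyy* and *Gpx3* were lower in PD-L1low libraries than in both other groups.

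The receptor and its proximal kinases did not pass the test. None of the 7 genes for the interferon receptor chains and kinases did so, their log2 fold changes ran from -0.22 to 0.15, and the list's median was -0.03, against 0.00037 over all tested genes. *Ifngr1*, for the ligand-binding chain, had 8.38, 15.3, 13.1 and 14.4 CPM in control replicates 1 to 4 and 14.2, 12.1 and 16.6 CPM in PD-L1low replicates 2 to 4, a log2 fold change of 0.06 with a 95% confidence interval of -0.38 to 0.50. *Ifngr2*, for the second chain, had a wider interval, -1.01 to 0.67. *Jak1* and *Jak2* had intervals of -0.14 to 0.37 and -0.13 to 0.44. The feedback list, of SOCS proteins, phosphatases and other inhibitors of this pathway, had none of 9 tested genes past the threshold, and a median of -0.02. *Socs1*, the inhibitor of the JAK kinases that IFNγ is known to induce, had no more than 1.49 CPM in any of the 7 libraries, and its interval of -1.15 to 1.88 leaves it unresolved.

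Among the transcription factors of the interferon response, several passed only without control replicate 1. *Irf1*, the early GAS-driven factor, had 45.4, 32.2, 30.4 and 31.5 CPM in the controls and 53.7, 44.9 and 54.5 CPM in PD-L1low cells, and did not pass (log2 fold change 0.63, edgeR adjusted p = 0.329). Its groups overlapped only through control replicate 1, and without that library it passed (0.69, edgeR adjusted p = 0.0466). *Irf9* and *Stat2*, which take part in the ISRE-binding factor, behaved alike in this respect, with adjusted p of 0.355 and 1 with all libraries and of 0.017 and 0.00233 without control replicate 1 by the same edgeR test. *Stat2* had 64.5 CPM in control replicate 1, above the 36.4 to 46.6 CPM of the PD-L1low libraries, whereas the other controls had 20.7 to 23.6 CPM. *Irf8*, a factor of blood cells, was counted at no more than 0.828 CPM. *Stat3*, *Irf2* and *Irf7* did not pass either (log2 fold change -0.01, -0.09 and -0.34).

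The IRG GTPases, which act on the membranes around intracellular pathogens, held 6 of the 10 genes that rose. All 15 listed genes were tested, 6 rose, none fell, and all 15 had a log2 fold change above 0. The list's median log2 fold change was 3.96, and in PD-L1high cells, against the same controls, it was 7.63, with 15 of 15 genes higher. Counts were low at baseline, with 9 of the 15 genes under 1 CPM in every control library. Such genes could pass the filter through the treated libraries and had little room to fall. Their direction, and with it the median of the list, was therefore in part set by the filter. The summed level of the list was 40.1 to 83.5 CPM in control, 297 to 490 CPM in PD-L1low and 2545 to 3782 CPM in PD-L1high libraries.

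*Igtp*, *Irgm1* and *Irgm2* encode the regulatory members of the family. *Igtp* had 10.5, 8.02, 7.37 and 7.08 CPM in control replicates 1 to 4 and 79.0, 60.1 and 56.9 CPM in PD-L1low replicates 2 to 4. This was 7.83-fold above control, with a log2 fold change of 2.97 (SE 0.17, edgeR adjusted p = 3.06e-07). *Irgm2* had 18.5, 9.22, 7.19 and 10.3 CPM in the controls and 83.0, 68.0 and 55.7 CPM in PD-L1low cells, a log2 fold change of 2.74 (SE 0.25, edgeR adjusted p = 0.00148). *Irgm1* had the highest baseline of the family, with 38.2, 26.8, 24.8 and 25.3 CPM in the controls. It reached 130, 106 and 88.6 CPM in PD-L1low cells, a log2 fold change of 1.96 (SE 0.15, edgeR adjusted p = 8.63e-06). PD-L1high cells had 406 ± 86.3, 332 ± 56.1 and 533 ± 94.1 CPM of *Igtp*, *Irgm2* and *Irgm1* (SD, n = 4), and the log2 differences of PD-L1high from PD-L1low cells were 2.64, 2.19 and 2.26. In GENCODE M21 the *Igtp* and *Irgm2* models overlap by 7974 bases on the same strand of chromosome 11, so the split of reads between these genes is uncertain.

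The other IRG genes that rose came from a near absence of counts. *Gm12185* had 0.388, 0, 0 and 0.0896 CPM in the controls and 4.80, 3.18 and 3.51 CPM in PD-L1low cells, a log2 fold change of 4.96 (SE 0.58, edgeR adjusted p = 0.00118). Its model overlaps those of *Tgtp1* and *9930111J21Rik1* on the same strand, and its reads may be shared with them. *Gm12250*, annotated as a processed pseudogene, had no count in any control library and 0.911, 1.55 and 0.913 CPM in PD-L1low cells. Set against 3 counts over the 4 control libraries together, which is 0.0556 CPM, it was at least 20.2-fold higher (edgeR adjusted p = 0.00493). *Gm4841* had no count in the controls either and 2.90, 0.739 and 1.76 CPM in PD-L1low cells, at least 32.3-fold higher (edgeR adjusted p = 0.00905). In PD-L1high cells these 3 genes had 24.9 ± 5.79, 15.9 ± 4.83 and 26.3 ± 9.02 CPM.

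Of the effector IRG genes that did not pass, *Iigp1* showed the widest gap between groups in CPM. It had 7.68, 0.15, 0 and 0.537 CPM in control replicates 1 to 4 and 122, 91.9 and 64.0 CPM in PD-L1low replicates 2 to 4, that is 99, 2, 0 and 6 counts against 1471, 1243 and 911. Its log2 fold change was 6.11, but the spread within control was large and the edgeR adjusted p was 0.907. Without control replicate 1 the log2 fold change was 8.80 and the adjusted p 1.67e-07. *Tgtp1* followed the same course, with 4.11, 0.225, 0 and 0 CPM against 27.9, 19.3 and 10.9 CPM, and with edgeR adjusted p of 1 and, without control replicate 1, of 8.76e-08. *F830016B08Rik* had 0.853, 0, 0 and 0 CPM against 8.78, 4.58 and 4.42 CPM, and its adjusted p went from 0.211 to 1.59e-06 without that library. *Tgtp2* had 0.698, 0, 0.604 and 0.896 CPM against 23.3, 24.4 and 6.11 CPM and passed neither way, with edgeR adjusted p of 0.0765 and 0.106. Without control replicate 1, 10 of the 15 IRG genes passed.

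Promoters are shown for the 6 genes that rose and whose promoter window, 250 bases before to 50 bases after the gene start, held a match to the GAS or ISRE. The elements searched, on both strands, were GAS as TTCNNNGAA and ISRE as GAAA, any 2 bases and GAAA, which reads TTTC, any 2 bases and TTTC on the other strand. Capitals mark the matches. Sequences and coordinates are those of RefSeq on GRCm38.p6, and each is printed along the strand of its gene.
Igtp (chr11:58199306-58199605, + strand): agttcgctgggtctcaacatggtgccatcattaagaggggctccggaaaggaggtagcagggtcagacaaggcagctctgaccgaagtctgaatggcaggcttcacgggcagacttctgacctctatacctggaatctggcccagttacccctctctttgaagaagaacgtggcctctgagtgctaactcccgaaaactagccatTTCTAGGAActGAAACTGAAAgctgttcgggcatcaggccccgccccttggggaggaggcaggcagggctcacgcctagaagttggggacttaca
Irgm2 (chr11:58214727-58215026, + strand): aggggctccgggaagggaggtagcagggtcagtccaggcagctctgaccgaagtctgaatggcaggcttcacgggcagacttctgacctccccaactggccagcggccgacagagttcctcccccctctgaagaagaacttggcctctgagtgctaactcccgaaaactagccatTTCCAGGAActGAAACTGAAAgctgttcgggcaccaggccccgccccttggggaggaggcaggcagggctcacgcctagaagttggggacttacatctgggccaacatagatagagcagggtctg
Gm12185 (chr11:48927133-48927432, - strand): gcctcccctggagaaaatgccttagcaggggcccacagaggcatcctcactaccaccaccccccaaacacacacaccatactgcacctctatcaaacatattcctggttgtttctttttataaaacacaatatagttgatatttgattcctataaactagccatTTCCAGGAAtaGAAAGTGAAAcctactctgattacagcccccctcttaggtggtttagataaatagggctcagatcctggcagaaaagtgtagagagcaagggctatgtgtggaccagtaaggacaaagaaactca
Gm12250 (chr11:58183593-58183892, + strand): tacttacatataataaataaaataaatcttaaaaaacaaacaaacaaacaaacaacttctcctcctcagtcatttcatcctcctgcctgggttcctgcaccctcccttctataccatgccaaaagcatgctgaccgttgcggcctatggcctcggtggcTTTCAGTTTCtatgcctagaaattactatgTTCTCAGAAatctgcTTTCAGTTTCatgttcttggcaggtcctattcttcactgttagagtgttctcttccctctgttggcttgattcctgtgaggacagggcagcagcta
Irgm1 (chr11:48871371-48871670, - strand): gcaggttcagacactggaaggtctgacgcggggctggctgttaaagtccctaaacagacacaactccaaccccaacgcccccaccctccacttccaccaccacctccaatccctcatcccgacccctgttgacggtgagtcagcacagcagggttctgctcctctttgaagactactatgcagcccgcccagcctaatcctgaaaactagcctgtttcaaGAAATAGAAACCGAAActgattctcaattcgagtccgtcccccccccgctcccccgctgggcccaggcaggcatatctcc
Gbp7 (chr3:142530086-142530385, + strand): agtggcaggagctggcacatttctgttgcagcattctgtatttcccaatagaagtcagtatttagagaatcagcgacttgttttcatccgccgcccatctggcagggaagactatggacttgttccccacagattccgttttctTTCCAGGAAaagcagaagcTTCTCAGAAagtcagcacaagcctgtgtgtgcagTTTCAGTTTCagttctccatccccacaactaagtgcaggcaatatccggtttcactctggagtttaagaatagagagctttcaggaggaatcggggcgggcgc

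Both elements lay side by side in the windows of *Igtp*, *Irgm2* and *Gm12185*, where the start of the GAS preceded the start of the ISRE by 11 bases. In *Gm12250* and *Gbp7* the starts of the nearest pair were 15 and 34 bases apart, and *Gbp7* held 2 GAS matches. *Irgm1* held 2 overlapping ISRE matches and no GAS match. Of the 10 genes that rose, 8 had a RefSeq window. Of these, 5 held a GAS match (62.5%), 6 an ISRE match (75%) and 5 both (62.5%). Over the tested genes with a window, 10517 in all, the shares were 8.31%, 3.66% and 0.447%, and among all 27025 genes with a RefSeq window they were 9.55%, 3.99% and 0.54%. The windows of *Tap1*, *Cd274*, *Ppy*, *Pyy* and *Gpx3* held neither element. For *Irgm2*, *Gm12185* and *Gm12250* the RefSeq windows lie apart from the starts of the GENCODE M21 models that were counted. Those starts are at 58199618, 48992226 and 58187739. The start of the counted *Irgm1* model, given above, also lies outside its window, and so does that of *Gpx3*. All of these windows therefore belong to other annotated starts. A match is a description of these letters and not a bound site.

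The guanylate-binding proteins, GTPases that also attack the vacuoles of intracellular pathogens, had 1 member past the threshold. Of 10 tested genes 1 rose, none fell, and all 10 had a log2 fold change above 0, with a median of 2.07. *Gbp7* had 41.3, 18.0, 18.5 and 23.7 CPM in the controls and 67.6, 57.4 and 44.5 CPM in PD-L1low cells, a log2 fold change of 1.34 (SE 0.21, edgeR adjusted p = 0.0375). The gap between control replicate 1 and PD-L1low replicate 4 was small, and *Gbp7* passed in 12 of 26 alternative fits. *Gbp6*, the most abundant of the list in PD-L1low cells by CPM, had 57.5, 18.7, 13.5 and 9.58 CPM against 96.5, 79.9 and 65.4 CPM, and its edgeR adjusted p was 0.326. *Gbp2*, *Gbp8* and *Gbp5* had log2 fold changes of 2.09, 1.40 and 0.97 with edgeR adjusted p of 0.0765, 0.0836 and 0.154, and their groups overlapped. Without control replicate 1, 9 of the 10 tested genes passed, *Gbp2* and *Gbp8* with log2 fold changes of 2.26 and 1.55 (edgeR adjusted p = 0.0221 and 0.00233), *Gbp6* with 2.54 (edgeR adjusted p = 1.48e-07) and *Gbp10* with 4.45 (edgeR adjusted p = 1.02e-07). *Gbp5* alone did not. In PD-L1high cells all 10 were above control, with a median log2 fold change of 5.10.

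The machinery that cuts, transports and loads peptides for MHC class I had 1 of 11 genes higher and none lower, with a median log2 fold change of 0.45. *Tap1*, a subunit of the transporter that carries peptides into the endoplasmic reticulum, had 16.6, 10.1, 9.48 and 10.3 CPM in the controls and 37.5, 32.7 and 25.8 CPM in PD-L1low cells. Its fold change was 2.95, with a log2 fold change of 1.56 (SE 0.17, edgeR adjusted p = 0.000421). *Tap2*, for its partner, had 15.9, 14.2, 14.2 and 8.06 CPM against 18.9, 19.8 and 15.2 CPM, a log2 fold change of 0.57 that did not pass (edgeR adjusted p = 0.978). *Nlrc5*, the transactivator of MHC class I genes, had the smallest adjusted p among the genes that did not pass. It had 8.45, 2.10, 1.39 and 1.16 CPM in the controls and 22.4, 14.2 and 16.6 CPM in PD-L1low cells, a log2 fold change of 3.02 (edgeR adjusted p = 0.0505), and without control replicate 1 its adjusted p was 3.43e-07. In PD-L1high cells it was at 41.5 CPM, and the log2 difference from PD-L1low cells, 0.97, did not pass (edgeR adjusted p = 0.503). *Psmb9*, for an immunoproteasome subunit, had 6.59, 3.22, 6.16 and 3.31 CPM against 9.69, 11.7 and 13.4 CPM (log2 fold change 1.36, edgeR adjusted p = 0.0633). Without control replicate 1 it passed (1.46, edgeR adjusted p = 0.0128). Its model overlaps that of *Tap1* by 212 bases on the opposite strand. *Psmb8*, the neighbouring subunit gene, had 8.82 to 15.1 CPM in control and 18.3 to 23.3 CPM in PD-L1low libraries (log2 fold change 0.81, edgeR adjusted p = 0.286).

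The MHC class I chains had none of 12 tested genes past the threshold with all libraries, and a median log2 fold change of 0.19. *B2m*, the invariant light chain, had 187, 114, 91.2 and 106 CPM in the controls and 132, 196 and 170 CPM in PD-L1low cells, a log2 fold change of 0.58 with an interval of 0.23 to 0.93 (edgeR adjusted p = 0.978). The classical heavy chains *H2-K1* and *H2-D1* had log2 fold changes of 0.15 and 0.11, with intervals of -0.13 to 0.42 and -0.14 to 0.36. In PD-L1high cells they were at 782 and 376 CPM, log2 differences of 1.20 each from PD-L1low cells, and both passed (edgeR adjusted p = 0.000139 and 5.48e-05). The non-classical genes *H2-Q4* and *H2-Q6* had log2 fold changes of 0.85 and 1.93 (edgeR adjusted p = 0.0633 and 0.0734), and these near-identical family members may share reads. Without control replicate 1 these 2 passed, with log2 fold changes of 0.90 and 2.33 (edgeR adjusted p = 0.0173 and 0.000761). The block fit of DESeq2 also called 2 genes of the list higher, and limma-voom 1. None of 7 tested MHC class II genes passed, at a summed level of 2.10 to 8.30 CPM in control and 3.51 to 6.04 CPM in PD-L1low libraries.

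Among ligands of lymphocyte checkpoints, 1 of 7 tested genes rose. This was *Cd274*, the transcript of the protein on which the gate was set. It had 25.1, 20.9, 15.1 and 20.3 CPM in control replicates 1 to 4 and 47.0, 30.5 and 36.9 CPM in PD-L1low replicates 2 to 4, and the groups did not overlap. The fold change was 1.92, with a log2 fold change of 0.94 (SE 0.16, interval 0.60 to 1.28, edgeR adjusted p = 0.0394). It passed in 13 of 26 alternative fits, and without control replicate 1 its adjusted p was 0.00423. PD-L1high cells had 218 ± 44.8 CPM (SD, n = 4), a log2 difference of 2.48 from PD-L1low cells that the gate itself chose. An antisense model, AC119228.1, overlaps *Cd274* by 11055 bases, and whether the counting used strand is not given in the sources used here. *Pdcd1lg2*, for PD-L2, had no count in any of the 7 libraries. *Nectin2*, *Tnfrsf14* and *Lgals9* stayed short of the threshold (log2 fold change -0.42, 0.18 and 0.87).

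Chemokines and antiviral genes showed no change past the threshold with all libraries. None of 7 tested chemokine genes passed, and their median log2 fold change was -0.25. The values ran from -4.29 to 1.49, and 1 gene was lower at an unadjusted p under 0.05. *Cxcl10*, which draws CXCR3-bearing T lymphocytes, had 25.0, 3.52, 2.05 and 1.25 CPM in the controls and 6.87, 4.44 and 1.90 CPM in PD-L1low cells. Control replicate 1 was the highest of these 7 libraries, and the gene did not pass with it (edgeR adjusted p = 1) or without it (0.232). None of 26 antiviral effectors and sensors passed. *Ifit3*, a typical target of type I interferon, had 44.8 CPM in control replicate 1, 1.57 to 2.69 CPM in the other controls and 7.76 to 8.78 CPM in PD-L1low cells. *Oasl2* and *Rtp4* had a like layout, and without control replicate 1 these 3 passed, with log2 fold changes of 2.01, 1.29 and 1.94 and edgeR adjusted p of 0.000382, 0.000233 and 8.52e-06. The nucleic acid sensors *Ddx58* and *Ifih1* had intervals of 0.03 to 0.65 and 0.09 to 0.72 and did not pass. Of 13 PARP and TRIM genes none passed, although *Dtx3l*, the ubiquitin ligase that pairs with PARP9, had 49.8 to 61.0 CPM in control and 70.0 to 81.6 CPM in PD-L1low libraries (log2 fold change 0.49, edgeR adjusted p = 0.326). *Parp14* passed only without control replicate 1 (log2 fold change 0.69, edgeR adjusted p = 0.0221).

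**Figure D2:**
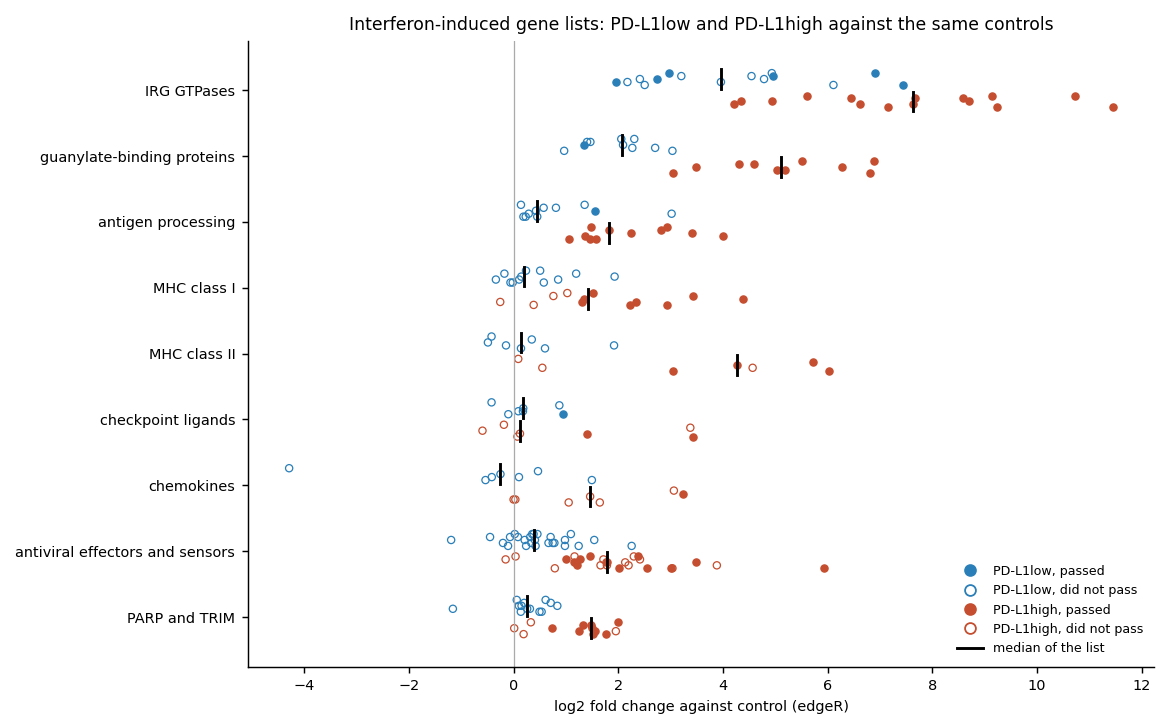
Log2 fold change against control of each tested gene of 9 interferon lists, in PD-L1low (blue) and PD-L1high cells (red), both against the same 4 control libraries. Filled points passed the test, and black bars are list medians. The PD-L1low medians were 3.96 for the IRG GTPases, 2.07 for the guanylate-binding proteins and 0.45 or less for the other lists shown.

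Over the 10 interferon lists together, 10 of 116 tested genes rose, none fell and 106 did not pass, and the median log2 fold change was 0.52. Of the 116, 20 were under 1 CPM in every control library and had little room to fall. The background share of genes higher was 0.0615%. In 27 of the 116 genes all PD-L1low libraries lay above all controls, where the share over all tested genes was 1.28%. With the same controls, 77 of the 116 were higher in PD-L1high cells, and 58 were higher in PD-L1high than in PD-L1low cells. These lists were chosen with results of these libraries known.

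Leaving out control replicate 1 changed the number of genes more than any other single library of the comparison did. Without it 15894 genes were tested, and 37 were higher (0.233%) and 6 lower (0.0378%). All 13 genes reported above were among them, which leaves 30 more, 27 higher and 3 lower. Control replicate 1 was the highest control for 83 of the 116 tested interferon list genes. Leaving it out thus favours higher calls among such genes. On the interferon lists were 33 of the 37 higher genes. The 4 others were *Tnfsf10*, the death ligand TRAIL, with *Il18bp*, a decoy for interleukin 18, and the pseudogenes *BC023105* and *Gm28437*. The last 3 were named with their values known. *BC023105* had 3.02, 0.075, 0.0604 and 0.269 CPM in the controls and 111, 74.2 and 54.6 CPM in PD-L1low cells, with a log2 fold change of 6.73 (edgeR adjusted p = 0.176) and, without control replicate 1, of 9.22 (edgeR adjusted p = 4.01e-10). *Gm28437* had 998 CPM in PD-L1low replicate 4 and no more than 0.148 CPM in PD-L1low replicates 2 and 3, so its call rested on 1 library (edgeR adjusted p = 1 with all libraries and 0.0288 without control replicate 1). *Il18bp* had a log2 fold change of 0.68 (edgeR adjusted p = 0.541) and, without that library, of 0.78 (edgeR adjusted p = 0.0391). Of the 30 added genes, 26 had PD-L1low libraries all above control replicates 2 to 4 and 2 all below. The test that added these genes used the same libraries, so this separation is no separate support. Its share over all tested genes was not counted. With control replicate 1 included, the counts were 9 above, 2 below and 19 overlapping. In that library the mitochondrial share was the highest of all libraries beside the interferon genes, and the part of either in the other was not tested.

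**Figure D3:**
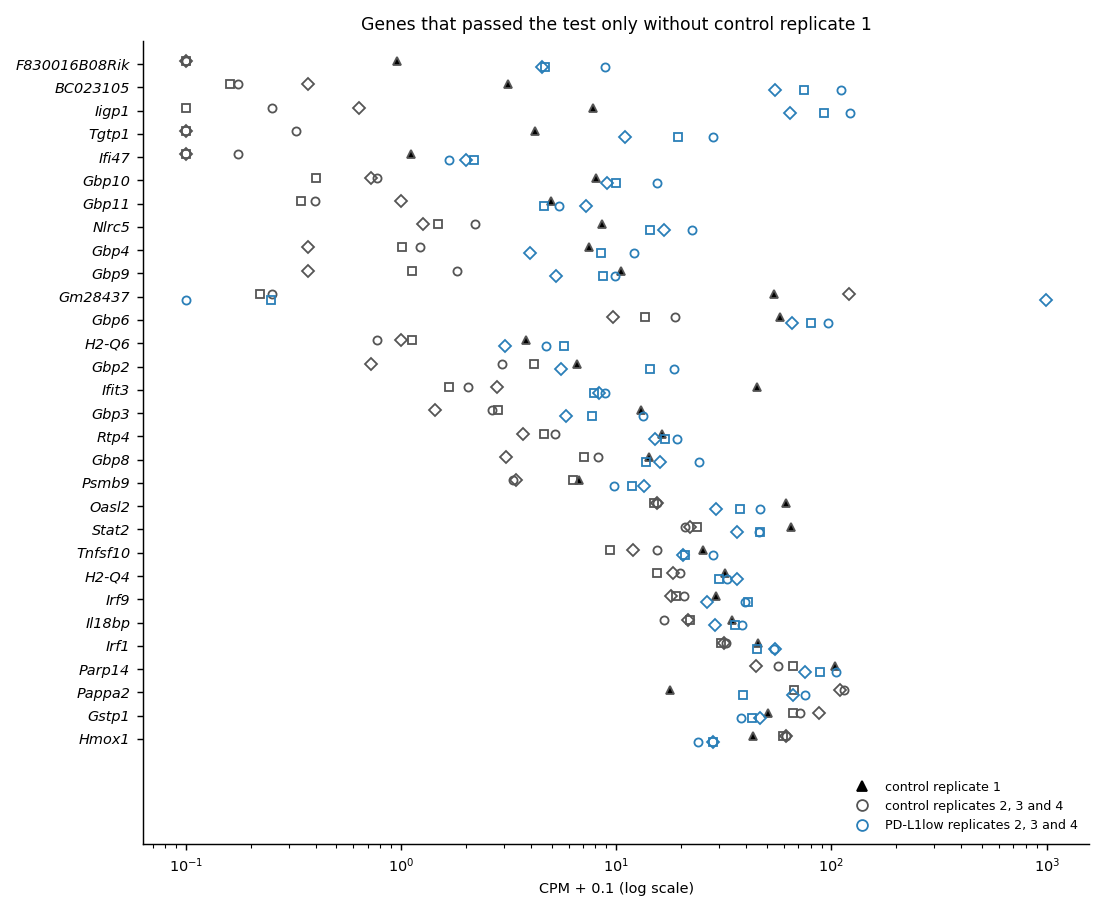
CPM plus 0.1 (log axis) in each control and PD-L1low library of the 30 genes that passed the test only without control replicate 1. For most of the interferon genes the black triangle, control replicate 1, sits to the right of the other controls, near or among the PD-L1low libraries.

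Hormone genes of PP cells were lower in PD-L1low than in control cells. *Ppy*, for pancreatic polypeptide, the hormone of PP cells, had the smallest p of all tested genes. It had 95.7, 273, 168 and 147 CPM in control replicates 1 to 4 and 20.8, 15.6 and 14.0 CPM in PD-L1low replicates 2 to 4. The lowest control was well above the highest PD-L1low library, the control level was 11.2-fold that of PD-L1low cells, and the log2 fold change was -3.49 (SE 0.13, edgeR adjusted p = 1.33e-09). *Pyy*, for peptide YY, had 54.1, 109, 85.1 and 79.6 CPM in the controls and 12.7, 11.2 and 15.8 CPM in PD-L1low cells, a log2 fold change of -2.76 (SE 0.18, edgeR adjusted p = 1.02e-06). The genes are neighbours on chromosome 11, at 102099930 to 102101319 and 102106676 to 102107832 (GRCm38). PD-L1high cells had 269 ± 113 and 94.2 ± 29.8 CPM of *Ppy* and *Pyy* (SD, n = 4), that is log2 differences of 4.16 and 2.96 from PD-L1low cells (edgeR adjusted p = 1.61e-10 and 4.08e-07). *Ppy* was also higher in PD-L1high than in control cells (log2 fold change 0.67, edgeR adjusted p = 0.00183), and *Pyy* did not pass that test (0.20, edgeR adjusted p = 0.783). In bulk samples, fewer cells of a type and less RNA per cell cannot be told apart. Nor can IFNγ treatment and the division of treated cells by the PD-L1 gate.

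*Gcg*, for glucagon, varied widely in control, with 219, 1161, 421 and 831 CPM, and had 227, 170 and 230 CPM in PD-L1low cells. PD-L1low libraries were thus within a narrow range at the lower end of the controls, and with a log2 fold change of -1.80 the gene did not pass (interval -2.51 to -1.08, edgeR adjusted p = 0.241). *Sst*, for somatostatin, had 9.07, 24.1, 3.20 and 10.1 CPM against 7.12, 2.14 and 2.04 CPM (log2 fold change -1.64, edgeR adjusted p = 0.154). It passed by DESeq2 (-1.62, adjusted p = 0.0019), by limma-voom (-1.83, adjusted p = 0.0172) and by edgeR without PD-L1low replicate 3 (-2.04, adjusted p = 0.0416), but not by DESeq2 without the replicate block (adjusted p = 1). Both were higher in PD-L1high than in PD-L1low cells, by log2 differences of 2.37 and 2.42 (edgeR adjusted p = 0.0163 and 0.00136). *Ttr*, for transthyretin, which alpha cells express strongly, had a log2 fold change of -0.57 (edgeR adjusted p = 0.407). Of the whole lists, 2 of 3 tested PP cell genes fell, and none of 9 alpha and none of 3 delta cell genes passed, with median log2 fold changes of -2.76, -0.57 and -1.28. DESeq2 called 2 alpha and 1 delta cell gene lower, and limma-voom 0 and 1. The summed PP cell list was at 153 to 385 CPM in control, 28.4 to 34.6 CPM in PD-L1low and 236 to 566 CPM in PD-L1high libraries. The alpha cell list summed to 880 to 2014 CPM in control and 857 to 958 CPM in PD-L1low libraries. The part of these cells in the other results was not tested.

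*Gpx3*, the third gene that fell, had 9.62, 14.5, 8.82 and 17.5 CPM in the controls and 6.13, 2.44 and 6.67 CPM in PD-L1low cells. The log2 fold change was -1.49 (SE 0.26, edgeR adjusted p = 0.0485), and it passed in 10 of 26 alternative fits. Of the 24 tested glutathione and antioxidant enzymes it was the 1 that passed, and 22 of the 24 had a log2 fold change below 0, with a median of -0.16. This lean was not particular to the list. Below 0 were also 13 of 15 endoplasmic reticulum stress genes and 13 of 15 beta cell transcription factors, whereas 13 of 18 sterol synthesis genes were above 0. *Hmox1*, the haem oxygenase induced by oxidants, had 43.0, 61.3, 59.6 and 61.4 CPM in the controls and 23.8, 28.1 and 27.9 CPM in PD-L1low cells. The groups did not overlap, yet the edgeR adjusted p was 1 with all libraries and 0.000216 without control replicate 1, with log2 fold changes of -1.02 and -1.20. *Gstp1*, a glutathione transferase, had 50.9, 71.2, 66.2 and 87.9 CPM against 38.1, 42.6 and 46.3 CPM, with edgeR adjusted p of 0.124 and, without that library, of 0.00596. PD-L1high cells had 104 CPM of *Hmox1* and 78.6 CPM of *Gstp1*, which were log2 differences of 1.83 and 0.95 from PD-L1low cells (edgeR adjusted p = 0.0177 and 0.00445). *Gpx2*, with 47.4 to 76.1 CPM in control and 32.2 to 57.1 CPM in PD-L1low libraries, did not pass (log2 fold change -0.51, edgeR adjusted p = 1).

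**Figure D4:**
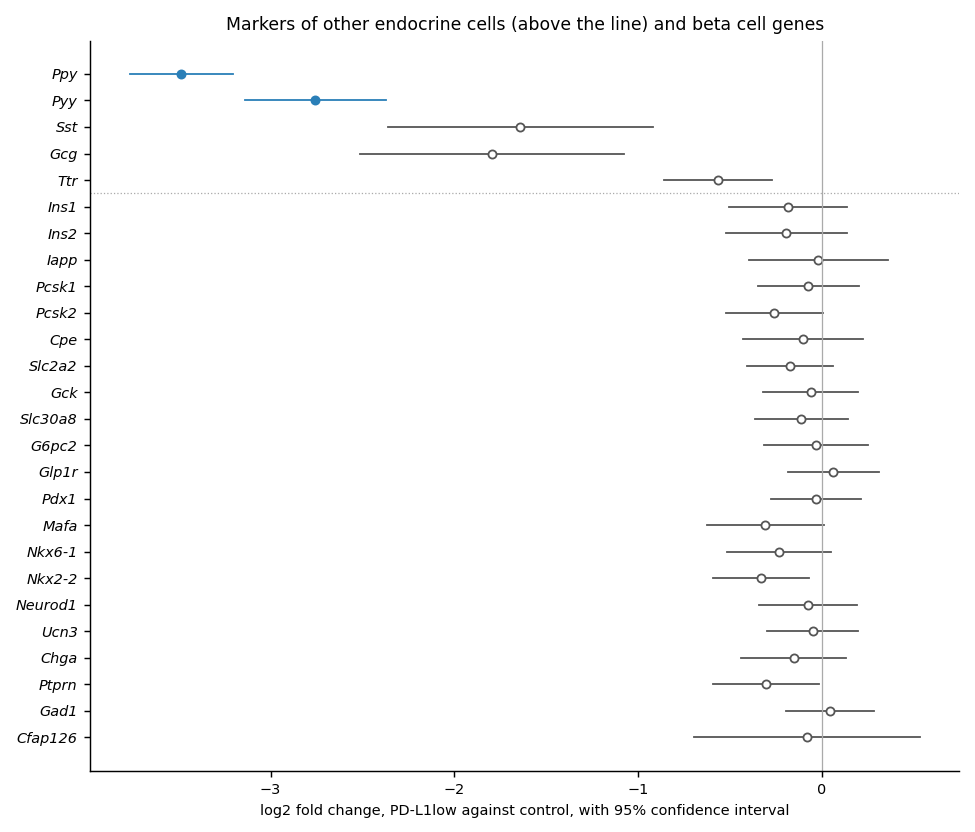
Log2 fold change of PD-L1low against control cells with its 95% confidence interval (n = 3 and 4 libraries), for markers of other endocrine cells and for beta cell genes. Filled points passed the test. *Ppy* and *Pyy* lay near -3.49 and -2.76, while most beta cell genes had intervals that included 0.

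The beta cell label matched the libraries. Deposited TPM, which accounts for gene length, averaged 141742 for *Ins2*, 35672 for *Iapp* and 20999 for *Ins1* in control cells, against 778 for *Gcg* and 22.4 for *Sst*. None of the 50 tested genes of the beta cell lists passed in either direction, with all libraries or without control replicate 1. Their median log2 fold change was -0.08, and the values ran from -3.70 to 0.93. At an unadjusted p under 0.05, 4 of these genes were lower and none higher. *Ins1* had 12052 to 23045 CPM in control and 17069 to 17911 CPM in PD-L1low libraries, with an interval for the log2 fold change of -0.51 to 0.14. *Ins2* had an interval of -0.52 to 0.14. Control replicate 1 was the lowest control for both genes.

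Of the 15 beta cell transcription factors none passed, and 13 had a log2 fold change below 0. *Pdx1*, the master factor of the pancreas and beta cells, had 124, 180, 184 and 149 CPM in the controls and 163, 173 and 151 CPM in PD-L1low cells, an interval of -0.28 to 0.21. *Mafa* and *Nkx6-1*, factors of mature beta cells, had log2 fold changes of -0.31 and -0.23 with intervals of -0.63 to 0.01 and -0.52 to 0.05. *Nkx2-2* had 120 to 140 CPM in control and 85.0 to 119 CPM in PD-L1low libraries, and its interval of -0.59 to -0.07 did not include 0 (unadjusted p = 0.0166, edgeR adjusted p = 1).

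The 25 genes of insulin processing and secretion had no member past the threshold. *Pcsk1*, a proinsulin convertase, had a log2 fold change of -0.07 (-0.35 to 0.20), *Slc2a2*, the glucose transporter, of -0.17 (-0.41 to 0.06) and *Ucn3*, a maturity marker, of -0.05 (-0.30 to 0.20). The autoantigen genes *Chga*, *Slc30a8* and *Gad1* had log2 fold changes of -0.16, -0.11 and 0.04. *Ptprn*, another autoantigen gene, was at 475 to 810 CPM in control and 504 to 647 CPM in PD-L1low libraries, with an interval of -0.59 to -0.02 (unadjusted p = 0.0402, edgeR adjusted p = 1). *Cfap126*, the marker Flattop, was at 2.95 to 7.08 CPM in control and 5.47 to 6.87 CPM in PD-L1low libraries, and its interval was wide, -0.70 to 0.53. Over all tested genes, 62.5% had an interval within 1 log2 unit on either side of 0, so a change of 2-fold was outside the interval for these but not for the remainder.

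Among the genes of the gate, *Epcam* was unresolved from 0, with an interval of -0.31 to 0.34, and so was *Itga6*, with -0.13 to 0.35. *Tfrc*, which encodes CD71, had 247, 272, 229 and 223 CPM in the controls and 160, 210 and 200 CPM in PD-L1low cells. These groups did not overlap, but the gene did not pass (log2 fold change -0.32, edgeR adjusted p = 1), and in PD-L1high cells it was at 342 CPM, a log2 difference of 0.80 that passed (edgeR adjusted p = 0.00609). *Cd24a* had a log2 fold change of -0.73 and did not pass (edgeR adjusted p = 1). Of 47 markers of acinar, duct, endothelial, stellate, Schwann, immune and erythroid cells, 10 passed the filter and none the test. Their sum was 425 to 565 CPM in control and 520 to 575 CPM in PD-L1low libraries, of which *Krt7* alone gave 272 to 343 CPM. The immune markers *Adgre1*, *Lyz2*, *Cd3e* and *Ms4a1*, the endothelial marker *Cdh5* and the haemoglobin gene *Hbb-bs* had no count in any of the 7 libraries. Other markers of these cells were counted. *Cd68*, *C1qa*, *Cd79a* and the erythroid gene *Alas2* passed the filter. The macrophage and lymphoid list summed to 8.38 to 12.2 CPM in control and 7.51 to 11.2 CPM in PD-L1low libraries.

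The stress, metabolic and cell cycle lists had no other gene past the threshold. None passed of 15 endoplasmic reticulum stress, 13 immediate early, 13 hypoxia and glycolysis, 12 NF-kB and inflammation, 16 cell death, 18 sterol synthesis, 13 mitochondrially encoded and 12 cell cycle genes. *Hspa5*, the chaperone of the endoplasmic reticulum, had an interval of -0.34 to 0.26, and *Ddit3*, the factor CHOP, of -0.16 to 0.53. *Chac1*, a target of the same response, had -0.59 to -0.04 and an edgeR adjusted p of 1. *Nos2*, the inducible nitric oxide synthase, had 4.34, 1.12, 0.845 and 0 CPM in the controls and 0.166, 0.518 and 0.211 CPM in PD-L1low cells, and 18.7 CPM in PD-L1high cells. *Tnfsf10* had 25.1, 15.3, 9.24 and 11.9 CPM in the controls and 27.9, 20.7 and 20.2 CPM in PD-L1low cells (log2 fold change 0.79, edgeR adjusted p = 0.364), and without control replicate 1 it passed (0.93, edgeR adjusted p = 0.00829). In PD-L1high cells it was at 142 CPM. Of the sterol synthesis genes, *Idi1* and *Insig1* had the smallest p, with log2 fold changes of 0.45 and 0.36 that did not pass (edgeR adjusted p = 1 for both), and both were lower in PD-L1high than in PD-L1low cells, by -0.86 and -0.68 on the log2 scale (edgeR adjusted p = 0.00477 and 0.01). *Mki67*, a proliferation marker, ranged from 5.74 to 59.6 CPM over the controls and from 12.2 to 92.7 CPM over the PD-L1low libraries.

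The outcome for single genes depended on the fit. *Ppy*, *Pyy*, *Igtp* and *Irgm1* passed in all 26 alternative fits. *Irgm2* and *Tap1* passed in 25 of them, *Gm12185* and *Gm12250* in 24 and *Gm4841* in 20. With control and PD-L1low libraries alone and the replicate block, *Gm12250* and *Gm4841* did not pass (edgeR adjusted p = 0.652 and 0.252). Without the block, *Gm12250*, *Gm4841*, *Gm12185* and *Tap1* did not pass in those libraries (edgeR adjusted p = 0.921, 0.584, 0.468 and 0.117). *Cd274*, *Gbp7* and *Gpx3* had the largest adjusted p of the 13 genes and passed in 13, 12 and 10. Leaving out 1 library at a time, the number of genes that passed ran from 8 to 43.

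**Figure D5:**
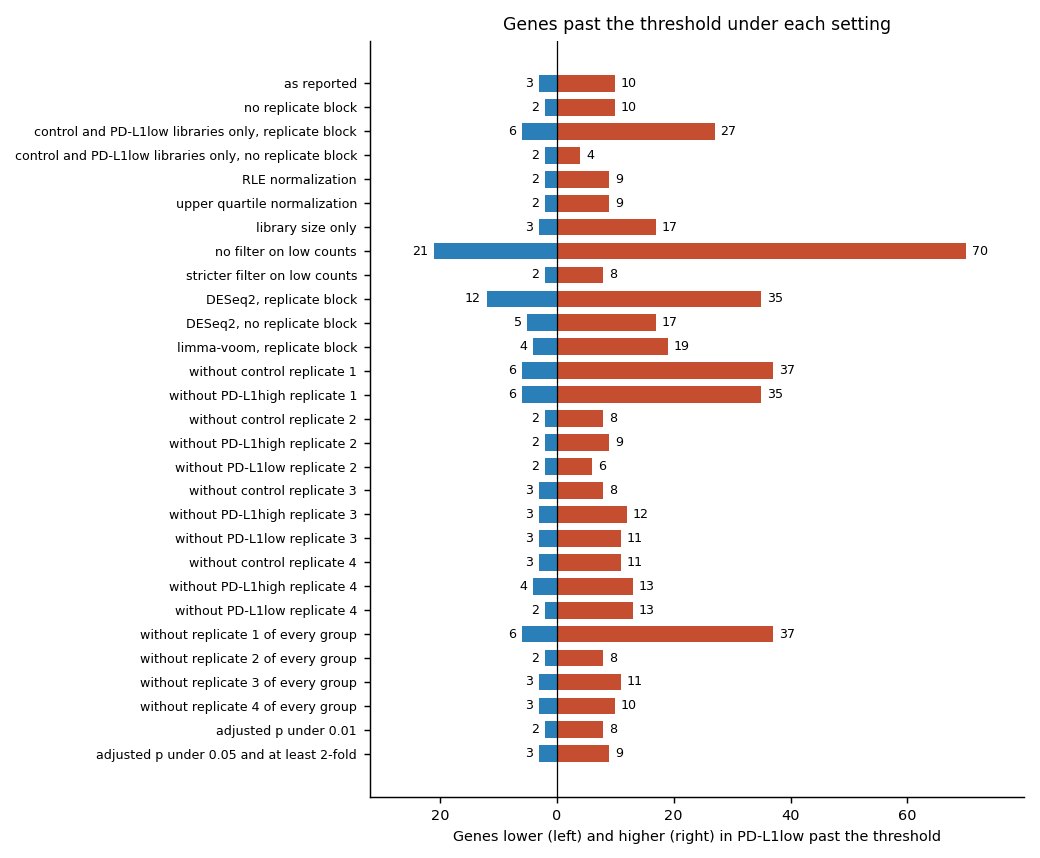
Number of genes lower (left bars) and higher (right bars) in PD-L1low against control cells past the threshold under each setting, with the number beside each bar. The reported fit gave 3 and 10. Settings without control replicate 1 or PD-L1high replicate 1 gave 6 lower and 35 to 37 higher, and those without another single library 2 to 4 lower and 6 to 13 higher.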

How the data were processed

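Beta cell RNA was amplified with the NuGEN Ovation Solo kit, which uses random primers and keeps strand, and sequenced in pairs of reads. The authors aligned reads to GRCm38.p6 with STAR 2.5.2b and deposited expected counts and TPM per gene from RSEM, whose version is not given in the sources used here. Expected counts keep fractions for reads shared between genes, and rounding them to integers moved library totals by at most 0.000388%. Deposited TPM served only to compare levels between genes.

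Counts were fitted with edgeR 4.0.16 in R 4.3.3 (quasi-likelihood with robust dispersion, TMM scaling, a minimum count of 10 by group). The model held group and replicate number over all 11 libraries, since the study's methods had a batch term. P-values were adjusted by Benjamini-Hochberg over 16252 genes, and calls were made at 0.05. The fit was tested on simulated data. DESeq2 1.42.0, limma 3.58.1, other scalings, other filters, subsets of libraries and each library left out were alternatives, and scripts ran in Python 3.11.15. Symbols were matched for 55141 genes and GENCODE M21 positions for 55227 of 55487 genes. Promoters were those of RefSeq.

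Genes could be named if they passed the test, were among the 10 smallest p that did not, or were beta cell genes of the study. Genes with one of the 4 smallest p of a list, gate genes and first markers of a list could also be named. Not every gene that met these rules is named. Named after their values were seen were *BC023105*, *Gm28437*, *Il18bp*, *Iigp1*, *Tgtp1*, *F830016B08Rik*, *Gbp6*, *Gbp10*, *Stat2*, *Stat3*, *Irf2*, *Irf7*, *Tap2*, *H2-K1*, *H2-D1*, *Ifit3*, *Oasl2*, *Socs1*, *Pdcd1lg2*, *Nos2*, *Hspa5*, *Ddit3*, *Mki67*, *Iapp*, *Adgre1*, *Lyz2*, *Ms4a1*, *Cdh5*, *Serping1*, *Tspan8* and *Pappa2*. The genes and lists were chosen with earlier results of these data known. The count of libraries limits the precision, and the median standard error of a log2 fold change was 0.24. Some genes that the counts include are not reported here by name.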

Additional observations from a re-analysis of the deposited data

Results flagged for a closer look

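Of 80 groups of 4 libraries tested over 40 named genes, 8 held a library far from the others by Dixon's criterion, which chance meets in about 1 in 20 groups. Control replicate 1 was that library for 6 of the 8. It had 38.2 CPM of *Irgm1*, where the nearest control had 26.8 CPM, and 16.6 CPM of *Tap1*, where the nearest had 10.3 CPM. For *Nlrc5* it had 8.45 CPM and the nearest 2.10 CPM, and for *H2-Q6* 3.72 and 1.03 CPM. For *Cxcl10* it had 25.0 CPM against 3.52 CPM, and for *Irf1* 45.4 CPM against 32.2 CPM. PD-L1high replicate 1 had 86.3 CPM of *Gbp5*, against 25.6 CPM in the nearest library of its group. Control replicate 2 had 1227 CPM of the glucose transporter gene *Slc2a2*, against 865 CPM in the nearest control. Groups of 3, such as the PD-L1low libraries, were not tested.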

How the results depend on the processing

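With 13 genes reported (10 higher, 3 lower, 10 higher on the interferon lists), no call changed direction under any alternative. Control and PD-L1low libraries alone gave 33 genes with the replicate block (27 higher, 6 lower, 24 on the interferon lists) and 6 without it (4 higher, 4 on the lists). Scaling by library size only gave 20 genes (17 higher, 17 on the lists), and no filter on low counts 91 (70 higher, 21 lower, 42 on the lists). DESeq2 gave 47 genes (35 higher, 12 lower, 31 on the lists), and without the block 22 (17 higher, 5 lower). Limma-voom gave 23 (19 higher, 18 on the lists). DESeq2, limma-voom and library size scaling each kept the 13 genes.

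Leaving out single libraries gave 8 to 43 genes, 6 to 37 higher, 2 to 6 lower and 6 to 33 on the interferon lists, lowest without PD-L1low replicate 2 and highest without control replicate 1. Without replicate 1 of every group the counts were 43, 37, 6 and 33, and without PD-L1high replicate 1 they were 41, 35, 6 and 32. In the latter case control replicate 1 is alone in its block and no longer enters the contrast. The same holds for the fit of control and PD-L1low libraries alone with the replicate block, since no PD-L1low library carries the number 1. The cause of the other shifts was not tested. Correlations between same-numbered control and PD-L1low libraries were -0.27, 0.10 and 0.24 for numbers 2, 3 and 4, and those between PD-L1high and PD-L1low libraries 0.14, 0.16 and 0.12. Those between PD-L1high and control libraries were 0.07, 0.02 and 0.08. Only the control and PD-L1low libraries thus held a negative value, and the labels do not say what a number shares. Without the replicate block 12 genes passed, 10 of them among the 13.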

Other observations

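Outside the lists, *Serping1*, for the inhibitor of complement C1, had 51.7, 46.0, 40.8 and 55.6 CPM in control replicates 1 to 4 and 66.8, 65.9 and 65.4 CPM in PD-L1low replicates 2 to 4. The groups did not overlap, but the log2 fold change of 0.50 did not pass (edgeR adjusted p = 0.337), and without control replicate 1 it was 0.48 (edgeR adjusted p = 0.268). PD-L1high cells had 260 CPM, a log2 difference of 1.92 from PD-L1low cells that passed (edgeR adjusted p = 4.53e-07). *Tspan8*, for a tetraspanin of the cell surface, had 19.0 to 25.6 CPM in control and 10.9 to 12.9 CPM in PD-L1low libraries (log2 fold change -0.84, edgeR adjusted p = 0.17). It was higher in PD-L1high than in PD-L1low cells, by 1.26 on the log2 scale (edgeR adjusted p = 0.00132). *Pappa2*, for a protease of insulin-like growth factor binding proteins, fell only without control replicate 1 (log2 fold change -0.71, edgeR adjusted p = 0.0219), and its libraries overlapped, with 17.6 to 114 CPM in control and 38.6 to 75.0 CPM in PD-L1low cells.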
